A study of Mus musculus with 37 samples.

Results

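Untreated splenic dendritic cells (sDCs) were set against 4 other untreated mouse myeloid cell types in a deposited table of transcript abundances. The comparison rested on 10 of the 37 samples of the series, 2 for each cell type. After the transcripts of a gene were summed, 6470 of the 6509 genes in the table had a value of 10 or more in at least 1 of the 5 untreated groups and were kept. A gene was called sDC-high when its sDC value was at least 2-fold above every other cell type, and sDC-low when it was at least 2-fold below every one. The copy of the table used here breaks off in its last line and holds only a part of the genes, so counts and shares are over that part, and listed genes outside it were not analysed here. The rule gave 539 sDC-high genes (8.33% of the genes kept) and 231 sDC-low genes (3.57%).

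All cells came from C57Bl6cJ mice. The untreated sDCs were purified from spleen with a magnetic dendritic cell enrichment kit, and the authors assessed their purity by CD11c. Macrophages were thioglycollate-elicited peritoneal cells that adhered to plastic. Neutrophils were taken from bone marrow of pooled mice and held overnight in the growth factor GM-CSF. Mast cells and eosinophils were grown from bone marrow. Each cell type thus differed from sDCs in tissue and in earlier culture or handling as well as in lineage. The paper states that all cells followed the same protocol and that the medium was replaced with fresh medium before treatment. The untreated sDCs were therefore also held in medium, and what that did to their genes was not tested. Other groups of the same cell types received 100 ng/ml of the anti-inflammatory cytokine IL-10 for 4 h, 100 ng/ml of bacterial lipopolysaccharide (LPS) for 4 h, or both in turn. All sDC libraries were made with a TruSeq kit that was otherwise used for a single mast cell replicate, and kit and cell type cannot be told apart. The table holds 1 value per group, taken as the authors' mean of its replicates, so no replicate spread, error or test can be given here, and each value below is such a mean. The sequencing depth behind a value is unknown from the table.

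Dendritic cells capture antigen in tissues and present it to T cells. In the spleen they comprise conventional subsets, cDC1 and cDC2, and plasmacytoid cells (pDCs). On maturation they raise costimulatory molecules and the chemokine receptor CCR7, which guides them to the T cell zone. Itgax encodes CD11c, the surface integrin by which such cells are commonly enriched.

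The label was first checked against its 2 markers. Ccr7 was at 185338 in untreated sDCs, while the value was 228.5 in neutrophils, 38 in macrophages, 16 in eosinophils and 2.5 in mast cells. The sDC value was 9.66 log2 units above the highest other cell type, and it stood at the ceiling of the table, since the largest transcript value of each of the 18 columns was also 185338. Itgax was not particular to sDCs. Its value was 4075.5 in sDCs, below the 13861 of macrophages by 1.77 log2 units and above neutrophils (3094.5), eosinophils (1039.5) and mast cells (407.5). In sDCs Itgax fell to 2753 with IL-10, 818.5 with LPS and 697.5 with both.

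The genes furthest above every other cell type were led by a gene family. Apol7c, an apolipoprotein L gene, reached 94917.5 in sDCs against 58.5 in neutrophils, 32 in macrophages, 8 in eosinophils and 0 in mast cells, a difference of 10.64 log2 units from the highest. Other genes have sDC values close to the 94917.5 of Apol7c, so the size of its difference may not be an amount. Apol10b was at 882 in sDCs and listed at 0 in the other 4 cell types. Apol7a (510 in sDCs) was listed at 0 elsewhere, and Apol7b (496.5) was at 1 in eosinophils and at 0 in the remaining groups. Of 9 measured genes whose symbol begins with Apol, 6 were sDC-high, beside 8.33% of all genes kept, but the family was chosen after its values were seen. These genes are close copies of one another, and reads may have been split between them.

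Slco5a1, a solute carrier, was at 17276 in sDCs and at no more than 26.5 elsewhere. Aire, the regulator that lets thymic epithelium express tissue antigens, was at 334.5 in sDCs and listed at 0 in the other 4 groups. Insm1, a zinc finger regulator known from neuroendocrine cells, was at 342 and listed at 0 elsewhere. Dpp10 (538.5) and Cacna1s (502.5), the latter a calcium channel subunit, were likewise listed at 0 outside sDCs. In all, 29 of the 539 sDC-high genes (5.38%) had a 0 in each of the other 4 cell types.

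Cdcp1, Slc4a8 and Tmod2 had low values above 0 in several other cell types and were far higher in sDCs. The other values of Cdcp1 and Tmod2 were all under the minimum of 10. Cdcp1, a transmembrane protein, was at 4110 against 6 at most elsewhere. The values of Slc4a8, a bicarbonate transporter, were 13349.5 in sDCs, 35.5 in neutrophils, 11.5 in eosinophils, 6 in macrophages and 0 in mast cells. Tmod2, an actin-capping tropomodulin, was at 2005 against 4 in macrophages, its highest other value. The remaining members of the leading 20 were 1110032F04Rik, Dscaml1, Bcl2l14, Slc44a5, Gal3st2, Lad1 and Sh2d4a, with sDC values from 336.5 for Sh2d4a to 3255.5 for Bcl2l14.

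**Figure D1:**
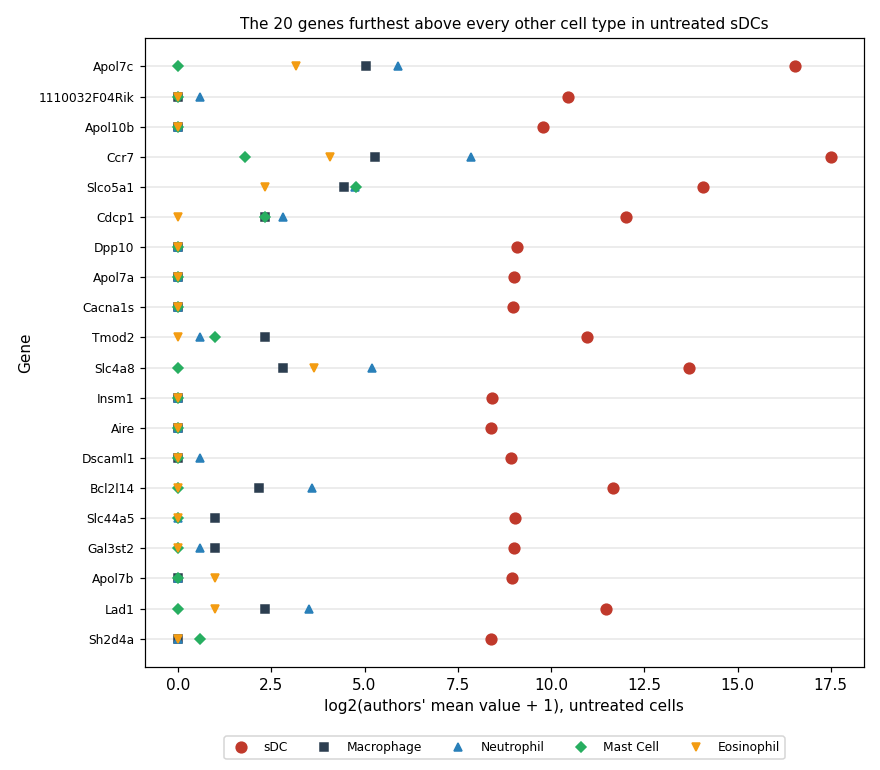
Untreated values of the 20 genes furthest above every other cell type in sDCs, as log2(value + 1), with 1 point for the authors' mean of each cell type. The sDC point lies to the right of all others in each row, with Apol7c and Ccr7 at the far right.

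By distance from the mean of the other 4 cell types, further genes joined these. Adam11 was at 14070 in sDCs and 87 in neutrophils, its highest other value. Cacnb3, a calcium channel beta subunit, was at 24373 against 128 in macrophages. Nr4a3, an orphan nuclear receptor, was at 13405.5 against 135 in neutrophils, and Dpp4, the peptidase CD26, was at 15226 against 403.5 in neutrophils. Il4i1, an amino acid oxidase, was at 64796.5 against 524.5. Clec4a4, a lectin receptor of cDC2, was at 1103.5 against 4.5 in macrophages. Ramp3, a receptor activity modifier, was at 4606 against 19.5 in macrophages, and Lpar3, a receptor for lysophosphatidic acid, was at 1515 against 6. Chst10 (1364) and 9930023K05Rik (1564.5) completed the 10.

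The distance from the other cells was often large. Of the 539 sDC-high genes, 332 were at least 4-fold above every other cell type, 203 at least 8-fold and 59 at least 64-fold. Of the 231 sDC-low genes, 58 were at least 4-fold below and 15 at least 8-fold. The same rule called 587 genes high in macrophages (9.07%), 435 in mast cells (6.72%), 206 in neutrophils (3.18%) and 193 in eosinophils (2.98%). Macrophages held the next highest value for 206 of the sDC-high genes, neutrophils for 152, mast cells for 112 and eosinophils for 69. At the threshold itself, Col9a2 was just inside, with 37 in sDCs and 18 in neutrophils, and Ift140 was just outside, with 1431.5 in sDCs and 715.5 in mast cells.

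Abundance was compared between genes per kilobase of exon. The 5 highest genes in sDCs on this scale were Tmsb4x (thymosin beta 4) at 247594 per kilobase, the ferritin light chain gene Ftl1 at 193388, the elongation factor gene Eef1a1 at 103738, Ccr7 at 93700 and Tspan3, a tetraspanin, at 63049. The summed sDC values of the first 4 lay at or just above the ceiling, from 185338 to 190231.5, so their order on this scale followed their lengths. Of the 5, Ccr7 and Tspan3 were sDC-high. The next sDC-high genes were Tmem123 at 49084, Apol7c at 46440 and Btg1, an antiproliferative factor, at 36994. Btg1 also stood at the ceiling, with 185338 in sDCs and 13517 in mast cells as its highest other value. Of the 40 genes with the highest value per kilobase in sDCs, 12 were sDC-high.

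Genes of dendritic cell maturation were mostly sDC-high. Of 37 listed genes 20 were measured, and 18 of them were sDC-high, beside 8.33% of all genes kept. The list was chosen with earlier results of these data known, so the count is a description. It holds Ccr7, Apol7c and Cacnb3, which were already named above for their distance from the other cells. Ccr7 is also counted below among the genes shared by conventional dendritic cells and the chemokine receptors, and Il12b is also on the cDC1 list. The median difference from the mean of the other cell types was 5.51 log2 units over the 20 genes and -0.08 over all genes. Ccl22, a chemokine that draws CCR4-bearing T cells, was at 6040 in sDCs and 491 in neutrophils, its highest other value. Ccl19, a ligand of CCR7, was at 50 and listed at 0 elsewhere. The costimulatory genes Cd40 (1824.5), Cd80 (2102) and Cd86 (2344) were each above every other group, by 2.65, 2.09 and 2.22 log2 units. Il12b, which encodes the p40 subunit of IL-12, was at 665.5 against 8 in macrophages.

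The 2 exceptions were Ccl17 and Cd200. Ccl17, another CCR4 ligand, was at 16 in sDCs and 999 in neutrophils. Cd200, an inhibitory surface glycoprotein, was at 3106 in sDCs and 4759.5 in macrophages. No group of freshly lysed spleen cells was analysed here, so the level of these genes before purification was not compared.

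**Figure D2:**
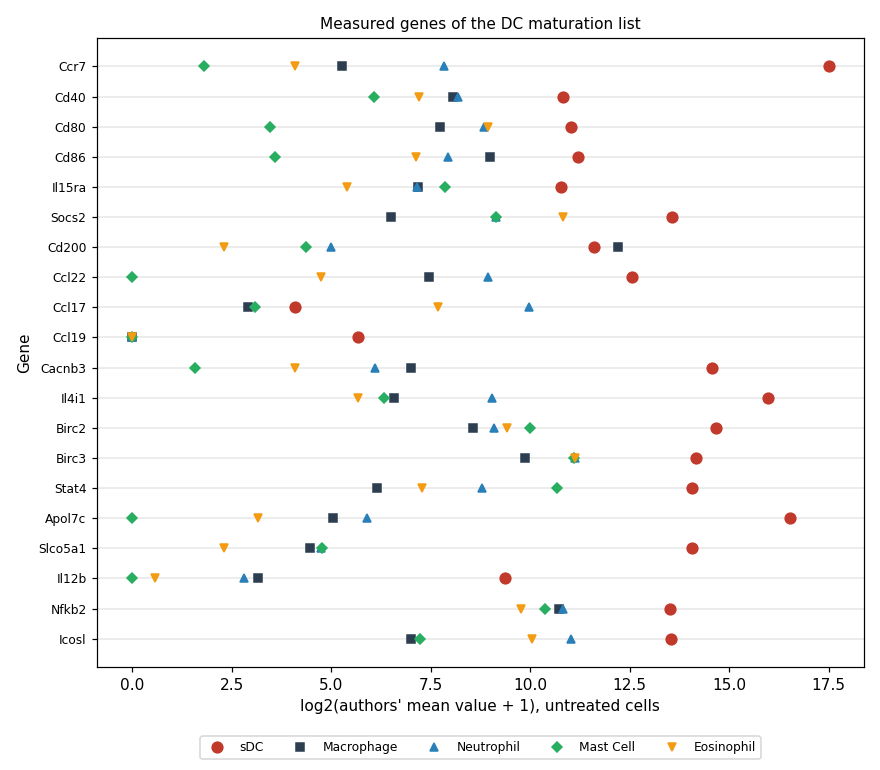
Untreated values of the 20 measured genes of the maturation list, as log2(value + 1), with 1 point per cell type. The sDC point is the highest in every row but those of Ccl17 and Cd200.

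NF-kB is the factor family that drives much of dendritic cell maturation, and its alternative arm runs through the kinase NIK, encoded by Map3k14. In a list of this pathway written after the values had been seen, 7 of 17 measured genes were sDC-high, beside 8.33% of all genes kept, and 15 had their highest value in sDCs. Over all genes kept, 1302 (20.1%) had an sDC value at or above every other. Map3k14 was at 12263 in sDCs and 805 in neutrophils, its highest other value. The subunit genes Nfkb2 (11598.5) and Rel (5020.5) were 2.67 and 2.78 log2 units above the highest other cell type. Birc2 and Birc3, ubiquitin ligases of the pathway, were at 25923 and 18276, with differences of 4.67 and 3.03. Nfkb2, Birc2 and Birc3 are also on the maturation list and were counted there. Nfkb1 did not separate the groups, with 6302.5 in sDCs and 7396 in mast cells.

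Interferon-related genes were counted in the same way, in a list also written after the values had been seen. Of 16 measured genes 10 were sDC-high, beside 8.33% of all genes kept. Gbp2, a guanylate binding protein, was at 16587 in sDCs against 1164.5 in macrophages, and Gbp5 was at 4573.5 against 85 in neutrophils. The transcription factor genes Irf1 (9982) and Stat4 (17265) were 2.66 and 3.40 log2 units above the highest other group. Stat4 is also on the maturation list. Gbp7, Irgm1, Irgm2, Igtp and Tgtp2 were below at least 1 other cell type.

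Promoter windows from 250 bases before to 50 bases after the transcript start were read from the NCBIM37 (mm9) genome for 538 sDC-high genes and 6461 kept genes. The 7 motifs below were searched on both strands. The interferon-type motif GAAANNGAA lay in 10.6% of the sDC-high windows and 8.50% of all windows, and the NF-kB motif GGGANTTTC in 1.86% and 1.24%. The PU.1 motif GAGGAAGT lay in 5.76% and 3.64%, the AP-1 motif TGANTCA in 6.51% and 5.51%, the ETS-IRF motif GGAANNGAA in 7.99% and 8.03%, the Runx motif TGTGGT in 15.4% and 13.2%, and the E-box CANCTG in 50.9% and 44.6%. Shares above those of all windows were also seen for other sets, with the E-box in 48.5% to 54.9% of the windows of genes high in the other 4 cell types and in 50.6% of the sDC-low windows. GAAANNGAA lay in 10.1% of the macrophage-high windows, and the PU.1 motif in 5.34% of the neutrophil-high and 5.70% of the eosinophil-high windows. In the windows of genes high in the other 4 cell types, AP-1 lay in 6.21% to 9.71% and Runx in 13.1% to 20.4%. The NF-kB motif lay in 1.04% to 1.46% of them. In the sDC-low windows the shares were 7.79% for AP-1, 13.4% for Runx and 1.73% for NF-kB. GAAANNGAA and GGAANNGAA can overlap. The median ratio of observed to expected CpG was 0.587 over the sDC-high windows and 0.737 over all windows, while it was 0.571 for macrophage-high genes. Among the 18 sDC-high maturation genes, 5 windows held GAAANNGAA (27.8%), 3 each held the PU.1 and AP-1 motifs (16.7%), 10 the E-box (55.6%), and 1 each the NF-kB, Runx and ETS-IRF motifs (5.56%). With 18 windows these shares rest on few matches. The 5 windows with GAAANNGAA are shown because that was the motif with the most matches in this group after the short E-box. Capitals mark the motif or its reverse complement, and each window runs 5′ to 3′ on the strand of the gene.
Apol7c: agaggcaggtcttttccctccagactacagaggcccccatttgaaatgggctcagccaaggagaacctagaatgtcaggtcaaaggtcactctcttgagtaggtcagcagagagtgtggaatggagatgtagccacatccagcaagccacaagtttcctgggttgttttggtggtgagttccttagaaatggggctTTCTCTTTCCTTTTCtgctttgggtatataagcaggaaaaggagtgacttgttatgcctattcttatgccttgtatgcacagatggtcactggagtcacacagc
Cacnb3: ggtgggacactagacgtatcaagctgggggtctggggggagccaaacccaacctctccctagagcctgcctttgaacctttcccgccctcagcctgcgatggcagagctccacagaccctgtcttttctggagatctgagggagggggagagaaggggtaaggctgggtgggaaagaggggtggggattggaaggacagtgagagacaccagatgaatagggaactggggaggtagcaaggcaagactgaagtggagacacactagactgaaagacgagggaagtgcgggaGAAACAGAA
Ccl19: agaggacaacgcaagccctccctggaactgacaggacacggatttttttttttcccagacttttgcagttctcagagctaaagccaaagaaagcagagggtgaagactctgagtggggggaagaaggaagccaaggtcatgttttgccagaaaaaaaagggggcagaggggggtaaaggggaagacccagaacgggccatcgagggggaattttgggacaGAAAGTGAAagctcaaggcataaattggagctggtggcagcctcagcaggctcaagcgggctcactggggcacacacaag
Cd80: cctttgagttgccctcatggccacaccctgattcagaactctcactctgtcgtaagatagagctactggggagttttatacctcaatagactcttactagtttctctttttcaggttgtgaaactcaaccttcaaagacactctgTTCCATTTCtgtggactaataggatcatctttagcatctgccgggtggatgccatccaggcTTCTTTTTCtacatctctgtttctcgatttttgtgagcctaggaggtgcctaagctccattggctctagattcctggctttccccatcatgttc
Cd86: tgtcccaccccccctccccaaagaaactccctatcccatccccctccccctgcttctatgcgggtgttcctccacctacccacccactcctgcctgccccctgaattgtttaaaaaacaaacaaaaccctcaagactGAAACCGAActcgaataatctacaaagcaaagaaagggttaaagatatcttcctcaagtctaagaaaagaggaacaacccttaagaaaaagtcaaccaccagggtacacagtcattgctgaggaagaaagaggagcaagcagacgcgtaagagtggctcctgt
The windows lie at chr15:77363696-77363995 (minus strand) for Apol7c, chr15:98462401-98462700 (plus strand) for Cacnb3, chr4:42770026-42770325 (minus strand) for Ccl19, chr16:38458943-38459242 (plus strand) for Cd80 and chr16:36666114-36666413 (minus strand) for Cd86. In Apol7c the capitals are a pair of overlapping matches. A match is only a description of the letters.

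Subset markers showed a mixture. The cDC1 markers Xcr1, a chemokine receptor, and Clec9a, a receptor for dead cells, were at 189.5 and 243.5 in sDCs, with differences of 2.57 and 1.28 log2 units from the highest other cell type. Ly75, the endocytic receptor DEC-205, was at 7627.5 against 1061.5 in neutrophils. Tlr3, also a cDC1 gene, was at 26 in sDCs and 264 in macrophages. The counts were 4 sDC-high of 11 measured genes for cDC1, 6 of 14 for cDC2, 4 of 14 for pDCs and 12 of 25 for genes shared by conventional dendritic cells. The share over all genes kept was 8.33%.

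Of the cDC2 genes, Cd4, which is also on the T cell list, was at 2306.5 against 58.5 in macrophages. Clec10a, a galactose lectin, was at 494 against 243.5 in neutrophils. Of the pDC genes, Tlr9, a receptor for CpG DNA, was at 2329.5 against 294 in neutrophils, and Spib, an Ets factor, at 4029.5 against 1669.5. Bst2, a pDC surface marker, was at 910.5 in sDCs and 4952 in macrophages. The pDC marker Ccr9 was at 189.5, beside 216.5 in neutrophils. Several defining genes of these subsets were not analysed here.

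**Figure D3:**
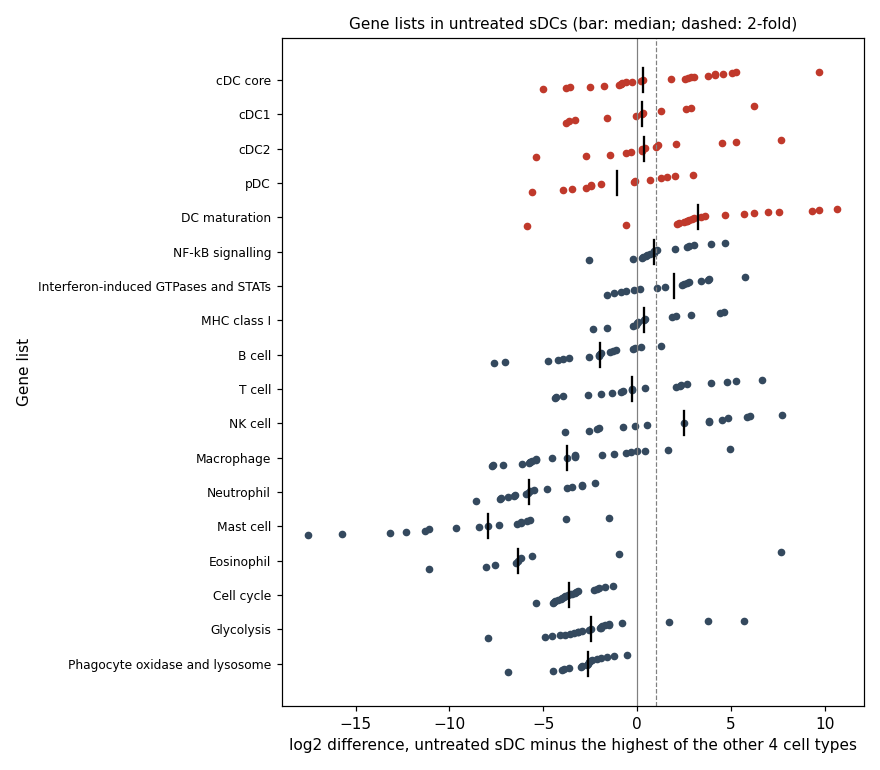
Each point is 1 measured gene of a list, placed by the log2 difference between untreated sDCs and the highest of the other 4 cell types. The maturation list has a median of 3.21, while the neutrophil, mast cell and eosinophil lists have medians from -7.93 to -5.75.

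Antigen presentation genes were uneven. Of 13 measured class I genes 5 were sDC-high, beside 8.33% of all genes kept. H2-K1, a classical class I gene, was at 56327.5 against 15494.5 in macrophages. H2-Q6 (19014.5) and H2-Q7 (23355) were 4.62 and 4.39 log2 units above the highest other, though they are near-identical copies between which reads may have been split. H2-D1 was at 45792 in sDCs and 35481.5 in macrophages. Of 23 listed genes of class II presentation, 7 were measured and 0 of these were sDC-high, while the other 16, the class II chains among them, were not analysed here. Among the 7, Ctsl, a protease that processes antigen, was at 535.5 in sDCs and 62505 in macrophages.

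Receptors for chemokines and microbes set sDCs apart in both directions. Of 18 chemokine receptor genes 6 were sDC-high, beside 8.33% of all genes kept. Among them were Cxcr6, at 801 against 14.5 in neutrophils, and Ccr8, at 40.5 with a listed 0 elsewhere. Ccr1, a receptor for inflammatory chemokines, was at 296 in sDCs and 27739.5 in neutrophils. Of 26 Toll-like and lectin receptor genes 9 were sDC-high, beside the same 8.33%. Clec7a, the beta-glucan receptor dectin-1, was at 3203.5 in sDCs against 45878 in neutrophils.

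Genes of lymphocytes were examined because the spleen is rich in them. Of 57 measured genes on the B cell, T cell, NK cell and plasma cell lists, 17 were sDC-high, and they made up 3.15% of the sDC-high genes, while the 57 genes made up 0.881% of all genes kept. Of these 17 genes, 14 were on none of the dendritic cell lists. Without all genes on the lymphocyte lists, 522 sDC-high genes were left. When neutrophils were left out of the comparison, the number on the lists was 28. The lists gave different pictures, and the part of lymphocytes in these values was not tested.

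B cell genes that define the lineage were higher in neutrophils than in sDCs. The authors name lymphocytes among the usual contaminants of their neutrophil preparation, and the part of these in the neutrophil values was not tested. Cd79b, a chain of the B cell receptor, was at 860.5 in sDCs and 2143.5 in neutrophils, and the B lineage factor genes Pax5 and Ebf1 were at 25 and 68 in sDCs and at 705.5 and 1261.5 in neutrophils. The summed value of Cd79b, Pax5 and Ebf1 was 953.5 in sDCs and 4110.5 in neutrophils, and it was 115.5 in macrophages, 65.5 in eosinophils and 3 in mast cells. The sDC sum was therefore below that of neutrophils and above those of the other 3 cell types. The summed value of the whole B cell list was 12629 in sDCs, 25075.5 in neutrophils, 13322.5 in macrophages, 23478.5 in eosinophils and 63602 in mast cells. Only Spib of 18 measured B cell genes was sDC-high, beside 8.33% of all genes kept, and Spib is also on the pDC list. Ighg2c, an immunoglobulin heavy chain gene that is on none of the lists and was chosen after its values were seen, was sDC-high as well, at 350 in sDCs, 9.5 in neutrophils and 0 in the other 3 cell types.

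T cell genes were sDC-high in 8 of 19 cases, beside 8.33% of all genes kept. Zap70, the kinase of the T cell receptor, was at 276 in sDCs and at 9 or less elsewhere, and Bcl11b, a T lineage factor, was at 172 against 10.5 in neutrophils. Tcf7, which encodes the factor TCF1, was at 15963 in sDCs, 161 in neutrophils, 62 in eosinophils, 41 in macrophages and 13.5 in mast cells. Lat, an adaptor shared with mast cells, was at 415 in sDCs and 8730.5 in mast cells. The summed value of Zap70, Lat and Bcl11b was 863 in sDCs, 241 in macrophages, 94 in neutrophils and 79.5 in eosinophils, and the 8736 of mast cells was almost all Lat. The summed value of the whole T cell list was highest in sDCs, at 24077.5, against 18822 in mast cells, 8132.5 in eosinophils, 5301.5 in neutrophils and 969 in macrophages. Tcf7 alone gave 15963 of the sDC sum, and without Tcf7 the mast cell sum was the higher.

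NK cell genes were sDC-high in 8 of 15 cases, beside 8.33% of all genes kept. The summed value of the list was 8478 in sDCs, 9192 in neutrophils, 5516.5 in eosinophils, 2779 in mast cells and 315 in macrophages, and Il18rap alone gave 8813 of the neutrophil sum. Klrd1, which encodes the lectin-like receptor CD94, was at 1906.5 in sDCs and 65 in neutrophils. Il2rb, a chain of the IL-2 and IL-15 receptors, was at 1142 against 17 in both neutrophils and macrophages. Klrc1, the partner of CD94, was at 204.5 and listed at 0 elsewhere. The defining member Klre1 was at 26 in sDCs and 18 in macrophages, and Klrg1 and Gzmm were at 9 and 14 in sDCs. Members of the Klr family are close copies, and reads may have been split between them.

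**Figure D4:**
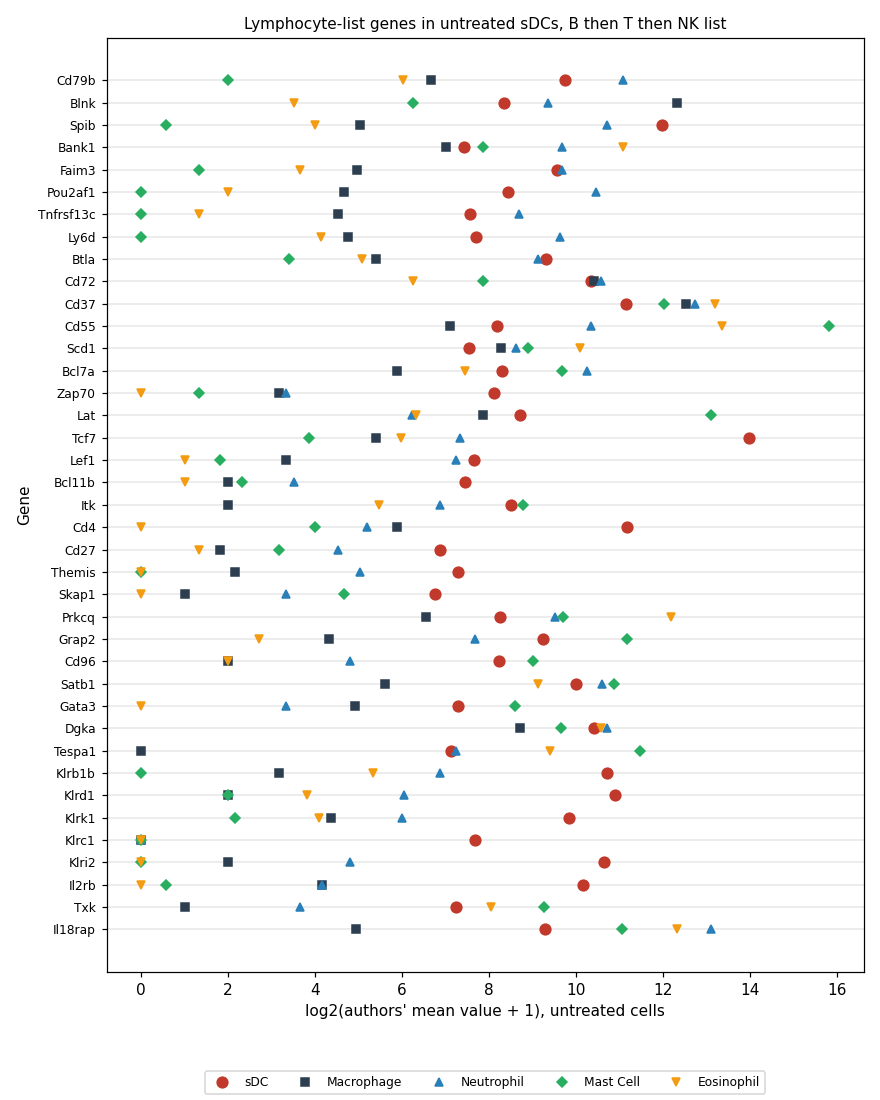
Untreated values, as log2(value + 1), of 39 lymphocyte-list genes at 100 or more in sDCs, with 1 point per cell type. The neutrophil point lies to the right of the sDC point for Cd79b, and sDC points lie far to the right of all others for Tcf7, Klrd1 and Il2rb.

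Genes of other cells of the spleen and marrow were also examined. Mpo, a neutrophil granule enzyme, was at 4890 in sDCs, and its sDC value was 2.22 log2 units below the highest other group. The 2 defining members of the neutrophil list summed to 4903 in sDCs and 22987.5 in neutrophils. Their sum was 582.5 in mast cells, 337.5 in eosinophils and 1 in macrophages, so sDCs were second to neutrophils. Epx, the eosinophil peroxidase, was at 980.5 in sDCs and at the ceiling of 185338 in eosinophils. The stromal collagen genes Col1a2 and Col3a1 were listed at 0 in sDCs. None of 16 neutrophil, 17 mast cell, 10 erythroid, 9 platelet or 11 stromal genes was sDC-high, beside 8.33% of all genes kept. A gene that is highest in a compared cell type cannot be called sDC-high. The neutrophil and mast cell counts therefore do not measure such cells among the sDCs, and their part was not tested. The defining member of the mast cell list is also on the list of genes shared by conventional dendritic cells. It was at 8800 in sDCs, 122731.5 in mast cells, 3906.5 in neutrophils, 220.5 in eosinophils and 29 in macrophages. In the eosinophil list 1 of 9 genes was sDC-high, Clec4a4, which is also on the cDC2 list. In the macrophage list 2 of 23 genes were sDC-high, near the share of all genes. Spic, a factor of red pulp macrophages, was at 2262 in sDCs and 71.5 in eosinophils, and Timd4 was at 187.5 against 59 in macrophages, while Emr1 (F4/80) was at 2133.5 in sDCs and 21201 in macrophages.

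The sDC-low genes included Atxn3, listed at 0 in untreated sDCs and at 248 to 806 in the other cell types. Atxn3 was at 142.5, 131.5 and 93 in sDCs with IL-10, LPS and both. Hist1h2ao and Hist1h2ap, near-identical histone genes, were at 2 in sDCs and at 115 or more elsewhere. Rapsn, Rab36, Pou5f2, Ankrd37 and F630111L10Rik had sDC values of 0.5 or less, B3gnt7 was at 5, and Lrp12, a lipoprotein receptor family gene, was at 231 in sDCs against 2564 in neutrophils, its lowest other value. Myc was at 176.5 in sDCs against 1155 or more elsewhere. Of the sDC-low genes, 68 had an sDC value under 10. Their number was 438 without macrophages and 407 without mast cells.

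Genes of glycolysis were counted in a list written after the values had been seen. Of 23 measured genes 8 were sDC-low, beside 3.57% of all genes kept, 3 were sDC-high, beside 8.33%, and 12 were neither, with a median difference from the mean of the other cell types of -1.57 log2 units. Ldha, lactate dehydrogenase A, was at 2988.5 in sDCs and 35994.5 in mast cells. Tpi1 was at 1248.5 in sDCs and 3552.5 in neutrophils, its lowest other value, and the glucose transporter gene Slc2a1 was at 534.5 against 1678 in eosinophils. The 3 sDC-high genes were Eno3 (8485.5), Eno2 (2476.5) and Pfkfb3 (40002.5), which were 5.68, 1.72 and 3.78 log2 units above the highest other. None of 20 cell cycle genes was sDC-high and 1 was sDC-low. Their median difference was -1.93 from the mean of the other cell types and -3.65 from the highest other.

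The groups given IL-10, LPS or both use separate samples, so they show whether the order of cell types was seen again, although the cells of a treated group come from the same kinds of preparation. Eosinophils have no IL-10 column in the table. Of the 539 sDC-high genes, 494 (91.7%) were also at least 2-fold above the other 3 cell types with IL-10, beside 9.15% of all genes kept there. With LPS the number was 379 (70.3%) beside 8.06%, and with both it was 393 (72.9%) beside 9.30%. All 3 treatments held 340 of them. Of the 231 sDC-low genes, 160 (69.3%) were low again with IL-10 beside 4.14%, 151 (65.4%) with LPS beside 4.72% and 133 (57.6%) with both beside 4.88%. Apol7c, for example, was 8.46 log2 units above the highest other cell type with LPS, Ccr7 6.82, Il4i1 4.49 and Tcf7 6.52. All 8 T cell genes that were sDC-high remained above every other cell type in each treatment. For maturation genes the counts were 18 of 18 with IL-10, 16 with LPS and 17 with both. Other lists kept fewer of their sDC-high genes. Of the 10 interferon-related genes, 6 were called again with IL-10, 4 with LPS and 3 with both. Of the 7 NF-kB pathway genes the numbers were 6, 4 and 4, of the 9 Toll-like and lectin receptor genes 8, 4 and 4, of the 6 cDC2 genes 5, 2 and 4, and of the 5 class I genes 5, 3 and 2.

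Within sDCs, LPS changed a part of these genes. Among 6050 genes with a value of 10 or more in at least 1 sDC group, 9.04% were raised and 11.5% lowered 2-fold by LPS, while IL-10 alone raised 1.60% and lowered 0.826%. Of the sDC-high genes, 89 (16.5%) were raised and 119 (22.1%) lowered by LPS, and 3 were raised and 16 lowered by IL-10. These contrasts share the untreated column that chose the genes, so their counts are a description.

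The sDC-high genes most raised by LPS were Tgtp1, Sp6, Icam5, Plagl1 and Cd40. Tgtp1, an interferon-induced GTPase, went from 152 to 6865, and Cd40 from 1824.5 to 29391.5. The 5 most lowered were Gcg, Clec10a, Hpgd, Hepacam2 and Skint3. Clec10a went from 494 to 9 and Hpgd, which degrades prostaglandins, from 1136.5 to 29.5, while Gcg went from 93.5 to a listed 0. Ccr7 was 140082.5 with LPS and 94827 with both treatments, and Apol7c was 185748.5 and 185591. The untreated Ccr7 value and these Apol7c values stood at or just above the ceiling of 185338, so the size of either change cannot be read. Lad1 rose from 2815.5 to 18952 with LPS, whereas Dpp4 went from 15226 to 3679. Of the sDC-high maturation genes, 6 were raised 2-fold by LPS and 0 lowered. Of the sDC-high NK cell genes, 4 were lowered and 0 raised.

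**Figure D5:**
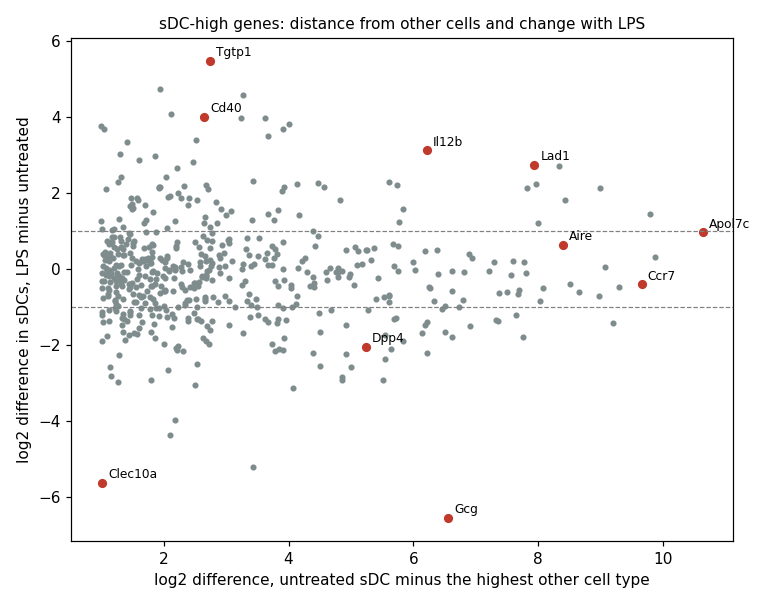
Each point is 1 sDC-high gene, placed by its log2 difference from the highest other untreated cell type and by its log2 change with LPS in sDCs, with dashed lines at 2-fold. Cd40 and Tgtp1 lie at the top, Gcg and Clec10a at the bottom, and Ccr7 and Apol7c at the right near or within the dashed lines.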

How the data were processed

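RNA from 37 samples was sequenced by the authors. Reads were aligned to ENSEMBL transcripts of mm9 with RSEM 1.2.1 and Bowtie 0.12.9, after which the authors corrected these for GC bias (EDASeq). The deposited values are a score per transcript, with 1 value per group in 18 columns. All are multiples of 0.5, so they were taken as means of the 2 replicates of a group. The methods name no scaling between columns beyond the GC correction. All columns share the maximum 185338, and how that came about is not stated. Some of the next largest values also lie close together, as for Apol7c (94917.5), Plxnc1 (94808) and Actr3 (94981) in untreated sDCs. Differences between values at or near this maximum, or within that group of next largest values, cannot be read as amounts. The 1 sample of CD4 T cells has no column. A broken line and 22 transcripts with no gene name were dropped, which left 16993 transcripts of 6509 genes. Since the copy used here breaks off, these are only some of the genes expressed. Values were summed per gene, log2(value + 1) was taken, and differences were formed from the highest, lowest and mean of the other 4 cell types. Fold changes are on that scale and understate the change of low genes. No test was possible without replicate values. Positions, lengths and promoters came from NCBIM37 and GENCODE vM1, in which 98.8% of the transcripts were matched, through the transcript with the highest mean over the 5 untreated groups. The rule was tested on simulated data. Named genes were the 2 markers, the 20 furthest above every other cell type, the 10 next by the mean, the 10 furthest below, the leading members of each list, the lymphocyte-list genes at 100 or more, the 5 highest per kilobase and the 5 most changed by LPS in each direction. Other genes named were chosen after their values were seen, and a gene that met the rule is not reported here. The members, lists and rules were chosen with earlier results of these data known. The alternatives were another pseudocount, minimum, summary per gene, scaling and set of cell types. Analyses used Python 3.11.15, numpy 2.4.6, pandas 2.3.3, pysam 0.24.0 and matplotlib 3.10.9.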

Additional observations from a re-analysis of the deposited data

How the results depend on the processing

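No paired analysis was possible because the table holds 1 mean per group, and for the same reason no replicate could be left out. Taken one by one, transcripts gave 1333 sDC-high and 1330 sDC-low calls. Against the mean of the other 4 cell types in place of the highest or lowest, 1258 genes were sDC-high and 1222 sDC-low, with 43 members of the cDC and pDC lists (26 in the report's rule) and 38 of the lymphocyte lists (17 in the report's rule). Leaving out neutrophils raised the lymphocyte-list count to 28, and leaving out macrophages or mast cells raised the sDC-low count to 438 or 407. The cause was not tested, beyond that fewer cell types have to be passed. Other pseudocounts, minimums, scalings and the largest transcript per gene left the sDC-high count between 485 and 559, and leaving out 1 cell type gave 580 to 751. Without genes at the ceiling it was 537, an alternative chosen after seeing the data, as was leaving out the lymphocyte lists. The maturation count stayed between 17 and 19. Of 570 recomputed differences of named genes, 565 kept their direction and their side of 2-fold. Itgax reversed without macrophages, to 0.40, and Clec10a and Cd40 passed below 2-fold in 4 cases. The table gives no depth, so precision cannot be stated.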
